A study of Rattus norvegicus with 24 samples.

Results

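Pyruvate carboxylase (Pc) and 9 further enzyme genes that feed, drain or shuttle intermediates of the citric acid cycle were followed in the rat heart during treatment with metformin, a biguanide used against type 2 diabetes. The 10 genes were Pc, the malic enzymes Me1, Me2 and Me3, Pck2, Glud1, the aspartate aminotransferases Got1 and Got2, and the malate dehydrogenases Mdh1 and Mdh2. They were chosen by their pathway, with earlier results of these data known. A transcript cluster is a group of array probes summarised to 1 value, and each gene is read from the cluster that lists it as its only symbol. The only measured value in the selection, the highest mean level among several such clusters, was never needed, because each of the 10 genes had 1. They are 10 of 22037 genes with a cluster of their own, and all 10 were among the 16031 genes tested, with levels above the array's median on all 24 arrays.

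The hearts came from healthy male RccHan Wistar rats that were 7 to 8 weeks old when assigned, carried no engineered allele and were housed 2 or 3 to a cage. Metformin groups were dosed by gavage with 800 mg/kg a day for 1, 3 or 14 days in a row. Control groups were given only the vehicle, a mixture of ethanol, Kolliphor HS 15 and tap water, for the same number of days. RNA from the apex of the left ventricle was measured on 1-colour Affymetrix arrays, with 4 arrays in each of the 6 groups, each labelled as a biological replicate, of 5 animals per group that the study design states.

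Anaplerosis is the refilling of the citric acid cycle with carbon that has left it for synthesis or export. Pyruvate carboxylase, a biotin enzyme of the mitochondrial matrix, makes oxaloacetate from pyruvate and is the classic anaplerotic enzyme of liver and kidney. In the heart, where the cycle is driven mainly by acetyl-CoA from fatty acids, malic enzymes, glutamate and propionyl-CoA are further known entry routes, and the transaminases and malate dehydrogenases carry cytosolic reducing equivalents into the mitochondrion through the malate-aspartate shuttle.

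All levels below are log2 of the deposited intensity values, and a difference is metformin minus control in log2 units. The brightest cluster of an array reached 999433 to 999974, beyond what a scanner records, so a fold change given here may be stretched against the fold change in RNA. Array medians ran from 4.68 to 4.95. The heart label fitted the markers: 6 of 7 cardiomyocyte genes had a cluster, among them the sarcomere genes Tnnt2 and Actc1, and all 6 were above the median on 24 of 24 arrays. Of 9 adipocyte markers, Fabp4, Cfd, Pnpla3 and Aqp7 were above the array's median on 24 arrays, Retn on 23, Lep on 12, Adipoq on 1, and Plin1 and Cidec, which mark lipid droplets of fat cells, on 0. In such bulk tissue, fewer cells of a type and less RNA per cell cannot be told apart.

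Pc was lower in metformin hearts than in vehicle hearts on every day measured, and its level in vehicle hearts was higher on the later days. On day 1, Pc stood at 7.26, 7.29, 7.34 and 7.37 in the metformin hearts, against 7.45, 7.50, 7.51 and 7.57 in the controls. On day 3 it stood at 7.55, 7.46, 7.39 and 7.33 under metformin, against 7.91, 7.96, 7.79 and 7.85 under vehicle. On day 14 it stood at 7.50, 7.61, 7.76 and 7.67 under metformin, against 8.11, 8.17, 8.10 and 7.88 under vehicle. Every metformin heart lay below every control heart of its own day, by the narrowest margin on day 1. Arms apart in this direction were found for 2.8% of all genes tested on day 1, 4.2% on day 3 and 4.53% on day 14.

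**Figure D1:**
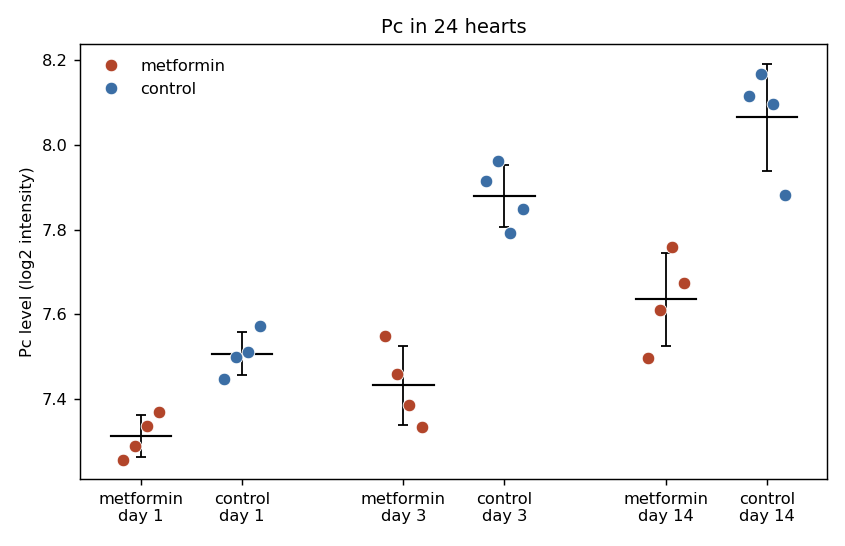
Pc level (log2 of the deposited intensity, vertical axis) for each of the 24 arrays by day of treatment, with metformin left of control within a day; points are arrays and bars are the group mean and SD of 4 arrays. The group means were 7.31, 7.43 and 7.64 in metformin hearts on days 1, 3 and 14, against 7.51, 7.88 and 8.07 in control hearts, and no metformin point reached a control point of its own day.

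In a limma fit of 1 mean per group across all 16031 genes, with Benjamini-Hochberg adjustment over all of them, Pc averaged 7.43 ± 0.09 in metformin hearts on day 3 and 7.88 ± 0.07 in control hearts (SD, n = 4 each). It thus fell by 0.45 (95% interval -0.59 to -0.30, 1.36-fold lower, limma adjusted p = 0.00341). On day 14 Pc averaged 7.64 ± 0.11 in metformin hearts and 8.07 ± 0.13 in control hearts (SD, n = 4 each), a difference of -0.43 (95% interval -0.57 to -0.29, 1.35-fold lower, limma adjusted p = 0.0100). On day 1 the averages were 7.31 ± 0.05 under metformin and 7.51 ± 0.05 under vehicle (SD, n = 4 each). That difference of -0.19 (95% interval -0.34 to -0.05) did not pass the threshold of 0.05 (limma adjusted p = 0.618). Over the mean of the 3 days Pc fell by 0.36 (SE 0.04, 95% interval -0.44 to -0.27, limma adjusted p = 3.76e-05), which is 1.28-fold lower with an interval of 1.21 to 1.36.

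Pc was thus 1 of the 10 enzyme genes to fall on day 3, where 0.424% of all genes tested fell, and 1 of 10 on day 14, where 0.268% fell. Because the 10 genes were chosen with earlier results of these data known, these shares are no test of the group. In the mean of days, 3.77% of all genes fell and 0.649% rose, and Pc held the fifth smallest p of the 16031 genes. Metformin and control arms that were apart in the downward direction on each of the 3 days were found for 27 genes, or 0.168% of all, among them Pc and none of the other 9 enzyme genes. On day 1, 0% of genes passed the adjusted limma threshold, and 1078, or 6.72% of all, had an unadjusted limma p under 0.05.

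The size of the Pc difference could not be shown to depend on the day. The difference was nearer to 0 on day 1 than on days 3 and 14, but the test of whether the 3 days differ gave an unadjusted p of 0.0292 and a limma adjusted p of 0.980, and 0% of genes passed that test. The within-day fits, which use the 8 arrays of a day alone, gave the same differences without passing (limma adjusted p = 0.130 on day 3 and 0.226 on day 14). After a further quantile normalization or cyclic loess the day 14 difference was -0.37 and did not pass (limma adjusted p = 0.0586 and 0.0536).

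Marker levels of the tissue's cells lay beside these differences as follows. The mean level of the 6 cardiomyocyte markers ran from 17.22 to 17.23 in metformin hearts of day 1, against 17.24 to 17.27 in control hearts, and the arm means differed by -0.03, -0.02 and -0.03 on days 1, 3 and 14. Of those 6 genes, 0 passed the limma test in the mean of days, and their part in the Pc result was not tested. The 9 erythroid genes with a cluster averaged 12.0, 12.0 and 11.7 under metformin, against 13.0, 12.4 and 11.8 under vehicle, with 9 of 9 below zero in the mean of days and 0 called by limma. The 9 adipocyte genes, of which 6 passed the filter for testing, averaged 6.28, 6.19 and 6.07 under metformin, against 6.26, 6.03 and 5.98 under vehicle. Median differences on days 1, 3 and 14 were 0.24, 0.10 and -0.18 for fibroblast genes. They were 0.01, 0.33 and -0.13 for endothelial genes, and -0.04, 0.41 and -0.12 for smooth muscle and pericyte genes. For macrophage genes they were 0.05, -0.05 and 0.06, and for skeletal muscle genes -0.48, 0.06 and 0.04. Limma called 0 genes of these lists on any single day. With the erythroid level as a covariate the Pc difference over the mean of days was -0.35, with the adipocyte level -0.37, and with a score of circadian clock genes -0.36, each still past the threshold. Without control day 1 replicate 4, which was high in skeletal muscle markers, and control day 3 replicate 2, which was high in erythroid markers, it was -0.34 and also passed. What part cell make-up or the clock had in the Pc result was not tested.

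The vehicle hearts themselves changed in Pc over the 2 weeks of gavage. In controls, the Pc means of 7.51, 7.88 and 8.07 on days 1, 3 and 14 differed with the smallest p of all 16031 genes (F = 33.8, limma adjusted p = 0.00399), where 0.162% of genes passed. Day 14 was above day 1 by 0.56 in the controls (SE 0.07, 95% interval 0.41 to 0.70, limma adjusted p = 0.00104), and 0.324% of genes rose in that comparison. Day 3 was above day 1 by 0.37, which did not pass (limma adjusted p = 0.375), and 0% of genes did. These comparisons use the same control arrays as the metformin differences, and age, days of gavage and any processing that differed by day cannot be told apart. The erythroid and adipocyte means of the controls given above were lower on the later days, and the test over the control days no longer passed with the erythroid level (F = 24.6, limma adjusted p = 0.0602) or the adipocyte level (F = 20.2, limma adjusted p = 0.0802) as a covariate. The rise of day 14 over day 1 kept its size and its call in both fits, at 0.56 with the erythroid level (limma adjusted p = 0.0143) and 0.59 with the adipocyte level (limma adjusted p = 0.0298).

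Under metformin, Pc means of 7.31, 7.43 and 7.64 followed the same order of days. The test over the 3 metformin days did not pass (F = 11.1, limma adjusted p = 0.0910), where 0.212% of genes did. Day 14 alone against day 1 was higher by 0.32 (limma adjusted p = 0.0429), with 0.237% of genes rising. That call was lost without any 1 of 11 of the 12 metformin arrays and under 7 other settings. Ordered by mean level, the 6 groups ran metformin day 1, metformin day 3, control day 1, metformin day 14, control day 3 and control day 14. Neighbours in this order overlapped in their array values, except metformin day 14 and control day 3, which were apart.

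Among the malic enzymes, which interconvert malate and pyruvate, no gene passed the metformin test on any day. Me1, the cytosolic NADP-dependent form, averaged 13.51, 13.42 and 13.63 in metformin hearts on days 1, 3 and 14, against 13.54, 13.47 and 13.59 in control hearts. Its difference over the mean of days was -0.01 (95% interval -0.16 to 0.14). Me2, the mitochondrial NAD-dependent form, averaged 6.79, 6.84 and 6.90 under metformin, against 6.78, 6.92 and 6.89 under vehicle. The Me2 difference over the mean of days was -0.02 (95% interval -0.17 to 0.12).

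Me3, the mitochondrial NADP-dependent form, had the largest difference of the 9 genes other than Pc on days 1 and 14 and in the mean of days. On day 1 its 4 metformin hearts held 12.37, 12.10, 11.77 and 12.22, against 12.58, 12.39, 12.38 and 12.09 in the controls. On day 3 the metformin hearts held 12.18, 12.10, 12.19 and 12.22, against 12.18, 12.21, 11.93 and 12.40 in the controls. On day 14 they held 12.54, 12.55, 12.12 and 12.30, against 12.61, 12.47, 12.47 and 12.46. The arms overlapped on all 3 days, and the lowest value of all, 11.77, came from metformin day 1 replicate 3. The differences were -0.25 on day 1 (95% interval -0.50 to 0.01, limma adjusted p = 0.764) and -0.12 over the mean of days (95% interval -0.27 to 0.02, limma adjusted p = 0.369).

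Pck2, the mitochondrial phosphoenolpyruvate carboxykinase that drains oxaloacetate, was the dimmest of the 10 clusters, only 0.55 to 1.03 above its array's median. It averaged 5.65, 5.59 and 5.47 in metformin hearts on days 1, 3 and 14, against 5.55, 5.58 and 5.50 in control hearts. Its difference over the mean of days was 0.03 and did not pass. How far a level this close to the median reflects Pck2 RNA was not tested.

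Glud1, the mitochondrial glutamate dehydrogenase that yields 2-oxoglutarate, was the member other than Pc closest to a change with time in the metformin arm. Its metformin hearts held 13.74, 13.55, 13.36 and 13.57 on day 1, 13.65, 13.43, 13.44 and 13.55 on day 3, and 13.87, 13.81, 13.69 and 13.79 on day 14. Its control hearts held 13.73, 13.61, 13.48 and 13.62 on day 1, 13.69, 13.74, 13.54 and 13.64 on day 3, and 13.85, 13.70, 13.77 and 13.76 on day 14. The arms overlapped on every day, and both arms had their highest mean on day 14.

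The Glud1 difference between metformin and control was -0.14 on day 3 (95% interval -0.29 to 0.02, limma adjusted p = 0.556) and -0.06 over the mean of days. Over the metformin days Glud1 gave F = 7.52 with an unadjusted p of 0.00339, which did not pass after adjustment (limma adjusted p = 0.183). Over the control days Glud1 gave F = 2.44 (limma adjusted p = 0.744), behind Me3 with F = 3.50 (limma adjusted p = 0.623). Glud1 on day 14 stood above day 1 by 0.24 under metformin (limma adjusted p = 0.195) and by 0.16 under vehicle (limma adjusted p = 0.439).

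The aspartate aminotransferases, which exchange amino groups between glutamate and oxaloacetate, did not pass the metformin test on any day. Got1, the cytosolic enzyme, averaged 14.91, 14.96 and 14.88 in metformin hearts on days 1, 3 and 14, against 14.87, 14.87 and 14.87 in control hearts. The day 3 metformin mean held 1 heart at 15.20, with the others between 14.87 and 14.91. Got2, the mitochondrial enzyme, averaged 16.15, 16.13 and 16.22 under metformin, against 16.17, 16.19 and 16.23 under vehicle. Over the mean of days the differences were 0.05 for Got1 (95% interval -0.06 to 0.16) and -0.03 for Got2 (95% interval -0.10 to 0.04), and neither passed.

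The malate dehydrogenases were the brightest of the 10 clusters. Mdh1, the cytosolic enzyme, averaged 17.86, 17.83 and 17.78 in metformin hearts on days 1, 3 and 14, against 17.86, 17.80 and 17.89 in control hearts. Mdh2, the citric acid cycle enzyme of the matrix, averaged 17.89, 17.85 and 17.98 under metformin, against 17.94, 17.90 and 17.93 under vehicle. Their differences over the mean of days were -0.03 (95% interval -0.11 to 0.06) and -0.02 (95% interval -0.09 to 0.05). Both lay near the upper end of the scale, at their closest within 1.96 (Mdh1) and 1.85 (Mdh2) of the array's highest value, and whether differences are compressed there was not tested.

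**Figure D2:**
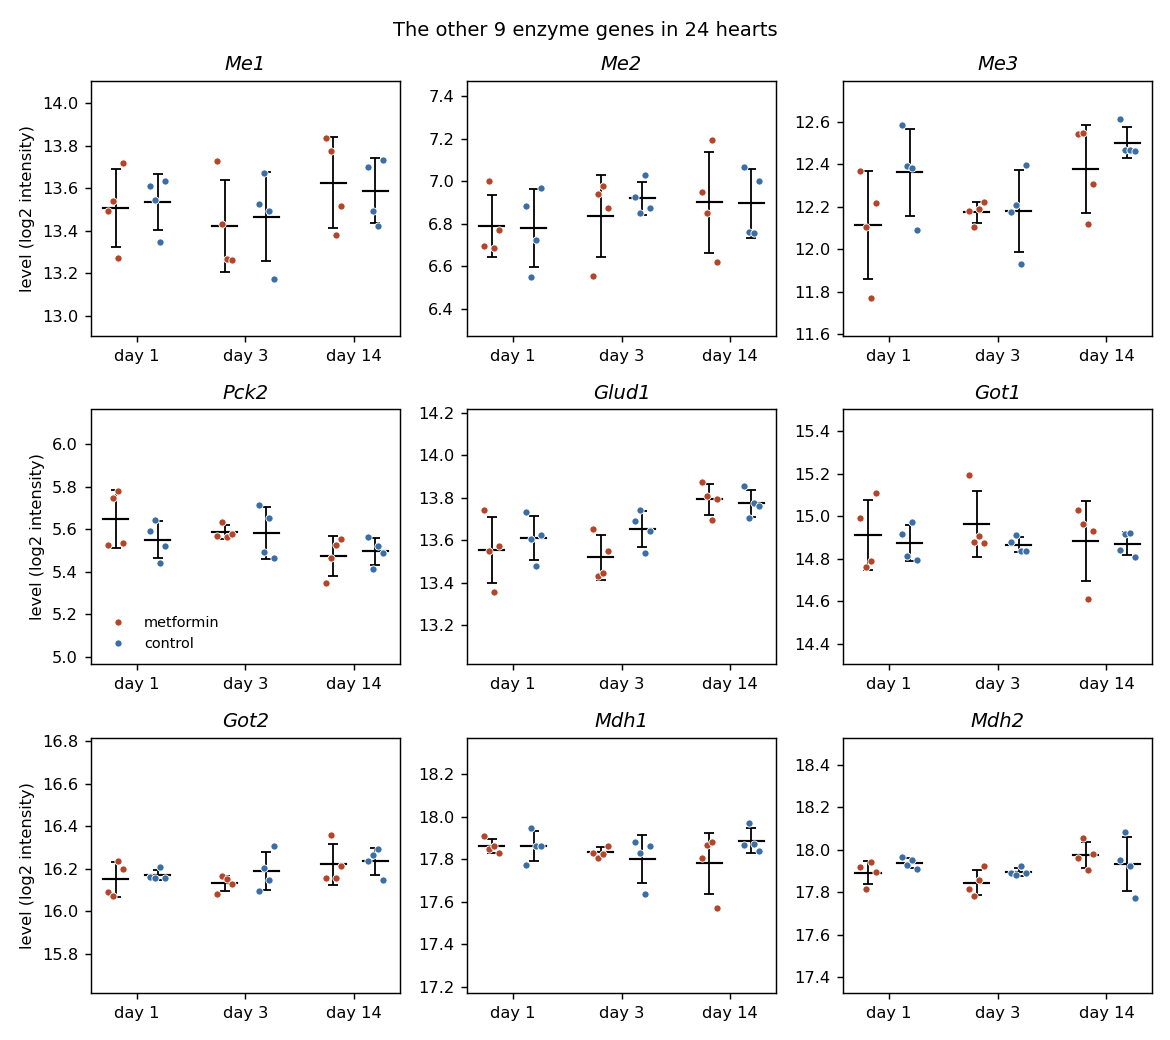
Levels (log2 of the deposited intensity, vertical axes with their own ranges) of the other 9 enzyme genes by day, with metformin left of control; points are arrays and bars are the group mean and SD of 4 arrays. Metformin and control points overlapped on every day in each of the 9 panels.

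Set side by side, 7 of the 10 genes were below zero on day 1, 7 on day 3, 5 on day 14 and 8 in the mean of days, with a median difference of -0.02 in the mean of days, against -0.01 over all genes tested. None of the 9 genes other than Pc passed in any metformin comparison. Their smallest limma adjusted p-values were 0.764 on day 1, 0.556 on day 3, 0.544 on day 14 and 0.369 in the mean of days. The 95% intervals bound what could have been missed: over all 9 genes they reached from -0.27 to 0.16 in the mean of days, and from -0.50 to 0.26 on day 1. An effect as large as that of Pc in the mean of days lay outside the interval of each of the 9 genes, whereas the Me3 intervals of days 1 (-0.50 to 0.01) and 14 (-0.38 to 0.13) included a difference of -0.36.

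**Figure D3:**
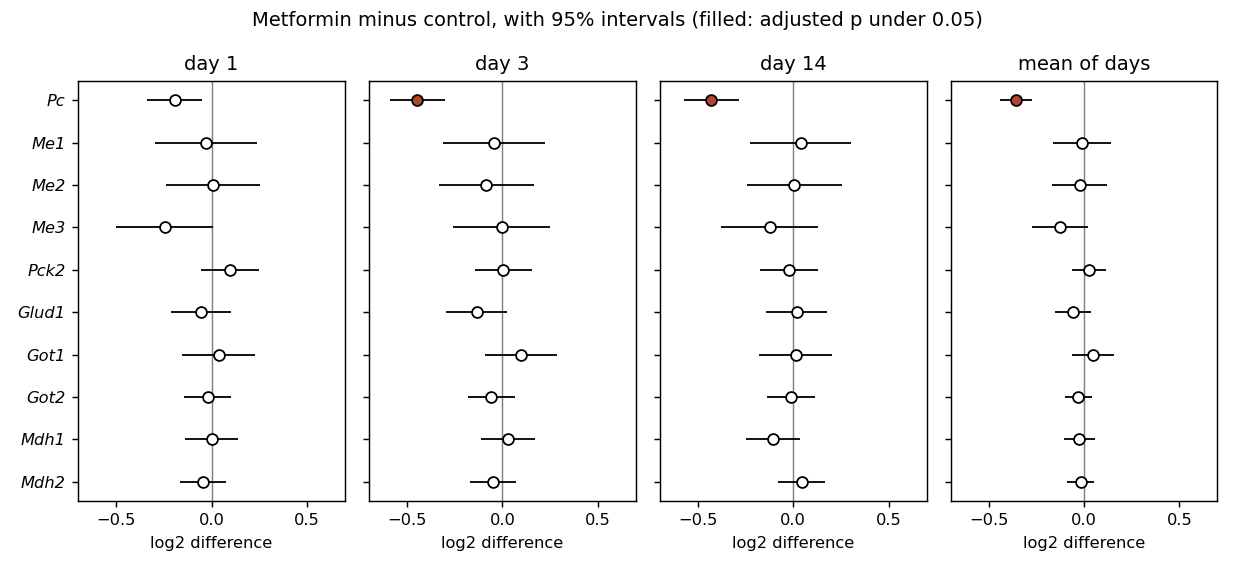
Difference in level (metformin minus control, log2) for each of the 10 genes on days 1, 3 and 14 and over the mean of days, with bars for the 95% interval of the limma fit and a line at 0. Pc lay at -0.19, -0.45, -0.43 and -0.36, while the other 9 genes lay within 0.25 of 0.

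The arrays also carried genes around these 10, in lists chosen with earlier results in view, and none of the listed genes passed on a single day. In the mean of days, 13 other anaplerotic and cataplerotic genes were tested, of which 0 rose, 2 fell and 11 did not pass, with a median of -0.01. Over all genes tested, 3.77% fell and 0.649% rose in that comparison. Glul, the glutamine synthetase that withdraws glutamate, averaged 13.40 in metformin hearts and 13.72 in control hearts and fell by 0.32 (SE 0.08, limma adjusted p = 0.0215). Pccb, the beta subunit of propionyl-CoA carboxylase, the biotin enzyme that leads propionyl-CoA towards succinyl-CoA, averaged 11.04 and 11.23 in the same order and fell by 0.19 (limma adjusted p = 0.0290). Mmut, methylmalonyl-CoA mutase on the same route, differed by -0.16 and did not pass (limma adjusted p = 0.0754).

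Of 6 genes for other biotin-dependent carboxylases, 0 rose, 2 fell and 4 did not pass, with a median of -0.16, and this list shares Pccb with the one above. Over all genes tested, 3.77% fell. The list was chosen with earlier results in view, so its count is no test of biotin enzymes as a set. The list's other call was Mccc2, the beta subunit of methylcrotonyl-CoA carboxylase of leucine breakdown. Mccc2 averaged 11.65 in metformin hearts and 11.95 in control hearts (difference -0.30, limma adjusted p = 0.0322). By day, it averaged 11.76, 11.40 and 11.79 under metformin on days 1, 3 and 14, against 11.75, 11.96 and 12.13 under vehicle. Its partner subunit Mccc1 differed by -0.15 and did not pass (limma adjusted p = 0.193). Of 10 genes for biotin attachment and pyruvate supply, 0 rose and 0 fell at the adjusted limma threshold. Hlcs, the ligase that attaches biotin to Pc, differed by -0.14 (limma adjusted p = 0.0966), Mpc2 of the mitochondrial pyruvate carrier by 0.14 (limma adjusted p = 0.166) and Slc5a6, the biotin and vitamin transporter, by 0.12 (limma adjusted p = 0.0937).

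Of 7 mitochondrial carriers of the shuttles, 1 rose, 0 fell and 6 did not pass, where 0.649% of all genes tested rose. Slc25a13, an aspartate-glutamate carrier of the malate-aspartate shuttle, averaged 12.37 in metformin hearts and 12.12 in control hearts and rose by 0.25 (limma adjusted p = 0.0442). Slc25a12, the other aspartate-glutamate carrier, differed by -0.07 (limma adjusted p = 0.332), and Slc25a11, the oxoglutarate-malate carrier, by -0.08 (limma adjusted p = 0.112). Leaving out single arrays lost the call for Pccb in 6 of 24 cases, for Mccc2 in 12 and for Slc25a13 in 17, and for Glul in 0. Of 12 other settings, 5 lost the call for Glul, 5 for Pccb, 6 for Mccc2 and 8 for Slc25a13, while each difference kept its sign in all of them. Cyclic loess, for example, lost all 4 calls, with differences of -0.29 for Glul, -0.16 for Pccb, -0.27 for Mccc2 and 0.29 for Slc25a13 (limma adjusted p = 0.0865, 0.129, 0.104 and 0.0504). All 4 calls were also lost with the erythroid level as a covariate (limma adjusted p from 0.0631 to 0.106) and without both control arrays high in other markers (from 0.0558 to 0.0824).

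Neither of the remaining lists held a call in the mean of days, where 4.42% of all genes tested passed. At that share, lists this short can hold no call, so their counts show no absence of a response. Of 5 other genes for NADPH-producing enzymes tested, 0 rose and 0 fell in limma, with a median of -0.03. Idh2, the mitochondrial NADP-dependent isocitrate dehydrogenase, differed by -0.02. Of 11 target genes of ATF4, the stress transcription factor, 0 rose and 0 fell in limma, with a median of -0.02. Ddit4, an inhibitor of mTORC1 signalling, differed by -0.89 on day 1, 0.22 on day 3 and -0.47 on day 14, and by -0.38 in the mean of days (limma adjusted p = 0.185). Chac1, a glutathione-degrading enzyme, differed by -0.17 and Shmt2, the mitochondrial serine hydroxymethyltransferase, by -0.06, and neither passed.

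**Figure D4:**
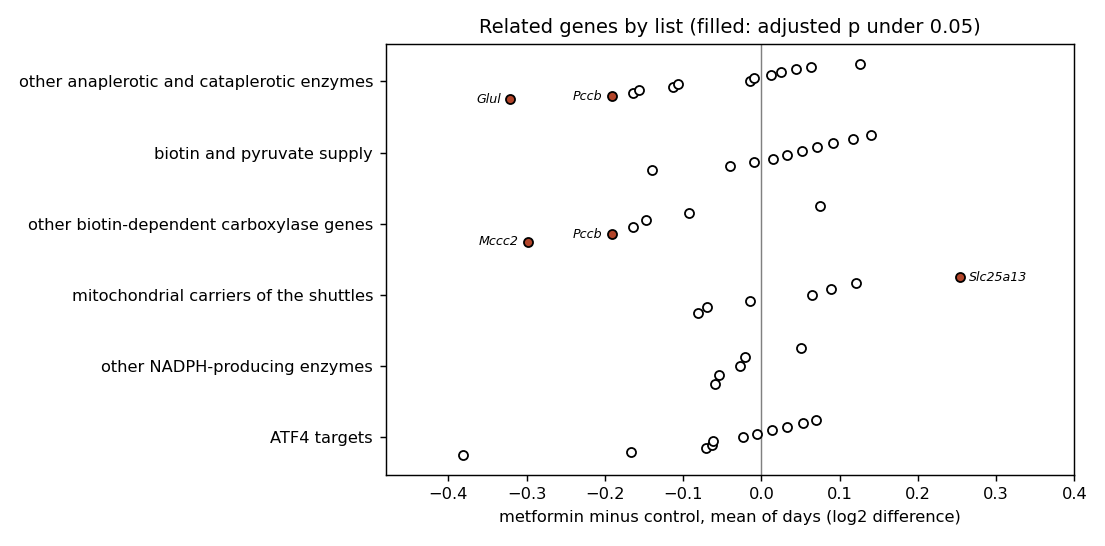
Difference in level over the mean of days (metformin minus control, log2, horizontal axis) for every tested gene of the 6 lists around the 10 enzymes; each point is a gene, filled where the limma adjusted p was under 0.05, and height within a list only separates the points. The filled points were Glul, Pccb and Mccc2 below zero and Slc25a13 above zero.

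Over the 24 arrays, the genes whose levels followed Pc most closely were Aldh4a1 (Pearson r = 0.880), Aldh6a1 (r = 0.867), Mylk3 (r = 0.848), Gstm7 (r = 0.842) and Bcat2 (r = 0.840). The median r with Pc over all genes was 0.02 and the 99th percentile 0.683. The 24 points share the 6 groups, so these correlations carry the treatment and day means. After removing each group's mean, r was 0.43, 0.42, -0.01, 0.37 and 0.22 in the same order. Aldh4a1, Aldh6a1 and Bcat2 encode mitochondrial enzymes of proline, valine and branched-chain amino acid breakdown, and Mylk3 encodes the cardiac myosin light chain kinase. Their differences over the mean of days were -0.44 for Aldh4a1, -0.19 for Aldh6a1 and -0.49 for Mylk3. For Gstm7 and Bcat2 they were -0.56 and -0.53. Each passed the limma threshold, as did 4.42% of all genes tested. The genes were picked by their correlation with Pc over all 24 arrays, and Pc itself was lower under metformin. That choice favours genes with a metformin difference in the same direction, so these calls are no separate result. Among the other 9 enzyme genes, Glud1 followed Pc most closely (r = 0.51) and Pck2 ran most opposite to it (r = -0.30).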

How the data were processed

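Per the labels, RNA from the left ventricle apex of each rat was labelled as biotinylated cDNA and hybridised to 1 array per sample. The authors deposited 1 linear intensity value per array and transcript cluster, made with RMA per the submitters' processing notes. The program and settings behind it were not given in the sources used here. Of 1652208 values none was 0 or less, and log2 was taken without a pseudocount, although a log2 table had been planned for. Of 68842 clusters, 23446 carried 1 symbol, 505 several and 44891 none in the platform annotation. Symbols were updated through gene identifiers of a RefSeq table (22077 clusters), symbols (1227) or synonyms (127), and 15 were kept. The brightest cluster stood for a gene.

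Genes above their array's median on at least 4 of 24 arrays were tested (16031) with limma 3.58.1 in R 4.3.3, with 1 mean per group, empirical Bayes and Benjamini-Hochberg adjustment over all genes tested. The fit was tested on simulated data first. For day 3 it recovered 36% of simulated 1.25-fold changes, 76% of 1.5-fold changes and 92% of 2-fold changes. The genes named are the 10 enzymes, up to 3 genes per list with the smallest p in the mean of days plus every called one, and the 5 most correlated with Pc. The enzymes and the lists were chosen with earlier results of these data known. Alternatives were another normalization, filter, covariate, array weights, a replicate block and each array left out.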

Additional observations from a re-analysis of the deposited data

Results flagged for a closer look

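Of the 60 sets of 4 arrays formed by the 10 genes and 6 groups, 3 held an array far from the other 3 in its group, and chance alone gives about 3 such sets. Got1 was at 15.20 in metformin day 3 replicate 1, with the others between 14.87 and 14.91. Me3 was at 12.61 in control day 14 replicate 1, with the others between 12.46 and 12.47. Got2 was at 16.21 in control day 1 replicate 3, with the others at 16.16. None of these genes passed the metformin test with or without the array concerned.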

How the results depend on the processing

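Pc over the mean of days passed under each of 12 alternatives (-0.41 to -0.32, limma adjusted p up to 0.00259) and without each of the 24 arrays (-0.38 to -0.34, limma adjusted p up to 0.000148). Its day 3 call was lost only with the 8 arrays of that day (-0.45). Its day 14 call was lost with a second quantile normalization (-0.37), cyclic loess (-0.37) and the 8 arrays of that day (-0.43). The number of the 10 genes called was then 0 in each of these fits. The control-day test for Pc was lost with the erythroid (F = 24.6) or adipocyte (F = 20.2) level as covariate, while day 14 minus day 1 in the controls still passed (0.56 and 0.59). The other 9 genes gave 891 alternative values, of which 0 passed in limma (smallest adjusted p 0.158), 116 changed sign and 19 moved by more than 1 SD. No gene had another cluster, so that alternative was not run.

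Counts over all genes, against which the calls are read, moved more. On day 1, array weights called 3 genes. On day 3 (76 genes) the count was 42 after centring, 42 after the second quantile normalization, 48 without the filter, 3 with 8 arrays, 25 with the clock score, 27 with the adipocyte level and 29 without both control arrays high in other markers. Leaving out an array gave 27 to 144, with control replicates 2 (27), 3 (144) and 4 (29) and metformin replicates 1 (45) and 4 (39) beyond 1.5 times. On day 14 (45 genes) it was 191 after centring, 8 after quantile normalization, 7 after cyclic loess, 91 with a filter on all arrays, 0 with 8 arrays and 83 with array weights. Leaving out an array gave 11 to 142, with metformin replicates 2 (11), 3 (142) and 4 (28) and control replicates 1 (28), 2 (16) and 3 (17) beyond 1.5 times. In the mean of days (708 genes) it was 384 after quantile normalization, 438 after cyclic loess, 343 with the erythroid and 319 with the adipocyte level. The share of lower calls there was 85.3%, against 97.2% after centring and 69% after quantile normalization. Centring moved the median of all genes on day 14 to -0.118. The cause of these shifts was not tested beyond the fewer arrays in the 8-array fits.

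No pairing of the samples by replicate number was found. With each gene's group mean removed, same-numbered metformin and control arrays of a day correlated at -0.148 to 0.110 over 12 pairs. Of the 12 metformin arrays, 3 correlated best with the control array of their own number. With the replicate block, Pc was -0.45 on day 3, -0.43 on day 14 and -0.36 over the mean of days, all still called, and the counts over all genes were 29, 24 and 378.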

Other observations

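The 4 marker genes checked beside the enzymes that passed the test over the mean of days were Ppargc1a, Casq1, Per1 and Bmal1. Over all genes tested, 4.42% passed in that comparison. The 4 were 1 of 2 brown adipocyte genes tested, 1 of 8 skeletal muscle genes, and 1 of 8 and 1 of 3 genes on 2 clock lists. The other marker lists held no call there. How these 4 calls depend on the processing was not examined. Ppargc1a, from a list of brown adipocyte markers, is a coactivator of mitochondrial gene expression. It averaged 12.74 in metformin hearts and 13.26 in control hearts (difference -0.52, limma adjusted p = 0.0131). Casq1, from the skeletal muscle markers, is a calcium-binding protein of the sarcoplasmic reticulum. It averaged 9.71 in metformin hearts and 10.38 in control hearts (difference -0.67, limma adjusted p = 0.00290). Of the 8 skeletal muscle markers, 8 were below zero on day 1 (median -0.48), and 1 on each of days 3 and 14. Control day 1 replicate 4 was high in these markers, and what part this had in the Casq1 difference was not tested. The circadian clock genes Per1 and Bmal1 differed by -0.62 (limma adjusted p = 0.00519) and -0.68 (limma adjusted p = 0.00821). Per1 was the only gene below zero of the 8 on its list of clock genes in the mean of days (list median 0.08). On day 3 the list had 0 of 8 below zero (median 0.33), so Per1 was not lower on that day. On day 1, 7 of the 8 were below zero with 0 called, and on day 14, 1 was below zero and 1 was called lower. All 3 genes on the Bmal1 list were below zero in the mean of days. Adding the clock score to the model left Pc at -0.36 over the mean of days. On day 3 the lists behind the score had median differences of 0.33 and -0.37, with 0 genes of either called by limma. A part of the clock in the Pc result was not tested.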
